A study of Homo sapiens with 9 samples.

Results

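The 10 genes described here are the ones most often used to place a cell between the epithelial and the mesenchymal state. They are the epithelial genes CDH1, EPCAM and ESRP1, the mesenchymal genes CDH2, VIM and FN1, and the transcription factors SNAI1, SNAI2, ZEB1 and ZEB2. The rule names them by symbol and uses no measured value, although earlier results of these data were known when they were chosen, and all 10 were found among the 60880 gene IDs of the libraries. The cells were of the SNU5 line, an established line from a human gastric carcinoma, and the drug was ramucirumab, an antibody that blocks the VEGF receptor VEGFR2. The cells were treated for 24 h with ramucirumab on gold nanorods through a PEG linker (AuNR-PEG-Ab, NR group), with the same antibody on gold nanospheres (AuSP-PEG-Ab, SP group) or with ramucirumab alone (Ab group), and poly-A RNA was sequenced. Every group received 8 μg/mL of antibody and had 3 libraries, and no untreated library was analysed here. The comparisons of the NR and SP groups with the Ab group therefore hold the particle and its linker. The comparison of NR with SP holds the particle's shape together with its dimensions, surface charge and supplier, which cannot be told apart.

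Epithelial cells are held to each other by E-cadherin, the product of CDH1, and lie in sheets on a keratin skeleton. In the epithelial-mesenchymal transition a cell loses these contacts, takes up N-cadherin (CDH2) and vimentin (VIM), and lays down fibronectin (FN1), a process known from the embryo, from wounds and from carcinomas. The factors of the SNAI and ZEB families are known to repress CDH1 through E-box sequences, and ZEB1 and ZEB2 are themselves held down by the miR-200 family of microRNAs in epithelial cells. The state is often mixed in carcinoma lines, which can hold genes of both kinds at the same time.

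Library totals were 25735410, 13863155 and 15943980 counts in NR, 21682836, 22914759 and 20601906 in SP, beside 19566064, 26318227 and 21031024 in Ab. Levels are given as CPM, counts scaled to a common library total, and different genes are ordered by CPM per kb of exon. The exon length merges the exons of all annotated transcripts of a gene, so it can exceed that of any single transcript. A count of 3, taken as the limit that a count of 0 allows, was 0.114 to 0.216 CPM depending on the library and covers counting error only. The 3 pairwise comparisons, of 6 libraries each, used the quasi-likelihood test of edgeR, and p-values were adjusted by Benjamini-Hochberg over every gene tested. A gene that reached an adjusted p of 0.05 or less passed, and it was called when the change was also at least 2-fold.

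The label of a gastric carcinoma was set against marker genes. Of 7 epithelial keratins, KRT7, KRT8, KRT18 and KRT80 were abundant, with KRT7 the highest at a mean of 363 CPM per kb over the 9 libraries. KRT19 and KRT23 stood at 3 counts or less in every library, and KRT20 at 6 or less. Of the 8 gastric epithelium markers, the mucin gene MUC5AC was the highest per kb, with 2248, 2804 and 2270 counts in Ab, 603, 356 and 430 in NR, and 1056, 664 and 452 in SP. TFF1, TFF2 and GKN2 stood at 5 counts or less in every library. KRT7, KRT8, KRT18 and MUC5AC were thus present, and several markers of the differentiated stomach lining were at or near 0.

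Some libraries stood apart within their groups. COL1A2, a collagen chain made by fibroblasts, had 37, 0 and 0 counts in NR1, NR2 and NR3, 49, 49 and 43 in the SP libraries, against 198, 278 and 33 in Ab1, Ab2 and Ab3. PDGFRA, a receptor of fibroblasts, had 58, 0 and 0 counts in NR, 65, 50 and 66 in SP, against 60, 72 and 45 in Ab. NR2 and NR3 thus lacked both genes, which every other library held, and Ab1 and Ab2 were high in COL1A2 beside Ab3. Values without Ab1 and Ab2, or without NR2 and NR3, are given beside the results that they change, and this choice of libraries was made after these counts were seen. Other matrix genes, singled out after their values were seen, had a like pattern. SPARC had 33, 1 and 2 counts in NR, 33, 38 and 27 in SP, against 141, 186 and 30 in Ab. POSTN had 10, 0 and 0 in NR, 8, 7 and 7 in SP, against 52, 75 and 5 in Ab. The matrix genes COL5A1 and FBN1 did not have it.

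Of the 10 genes, 9 could be tested, and both particle groups differed from Ab in all 9. CDH1 was about 20 times as high with either particle, EPCAM and FN1 about 3 times as high, and ZEB2 was lowered by more than 2-fold. VIM, CDH2, SNAI2 and ZEB1 fell by less than 2-fold, and SNAI1 rose by less than 2-fold. In NR against Ab 9 of 9 genes passed, 4 higher and 5 lower, beside 72.7% of all 15009 genes tested (36.4% higher and 36.4% lower). In SP against Ab 9 of 9 passed, again 4 higher and 5 lower, beside 73.0% of 15068 genes (36.4% higher and 36.6% lower). A share of 9 in 9 is thus close to what most genes of these cells did, and the count alone says little about these genes. The same 4 genes, CDH1, EPCAM, FN1 and ZEB2, were called in both comparisons, beside 22.7% of all genes tested in NR against Ab and 23.2% in SP against Ab. The groups did not overlap in CPM for 8 of the 9 genes in NR against Ab and for 9 in SP against Ab, beside 74.7% and 75.1% of all genes. The median log2 fold change of the 9 genes was -0.18 in NR against Ab and -0.33 in SP against Ab, and that of all genes tested was -0.0055 and -0.0067. Both comparisons used the same Ab libraries, so their values are set side by side and are not 2 independent results. With Ab1 and Ab2 left out, 7 genes passed in NR against Ab and 8 in SP against Ab, and 4 were called in each.

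**Figure D1:**
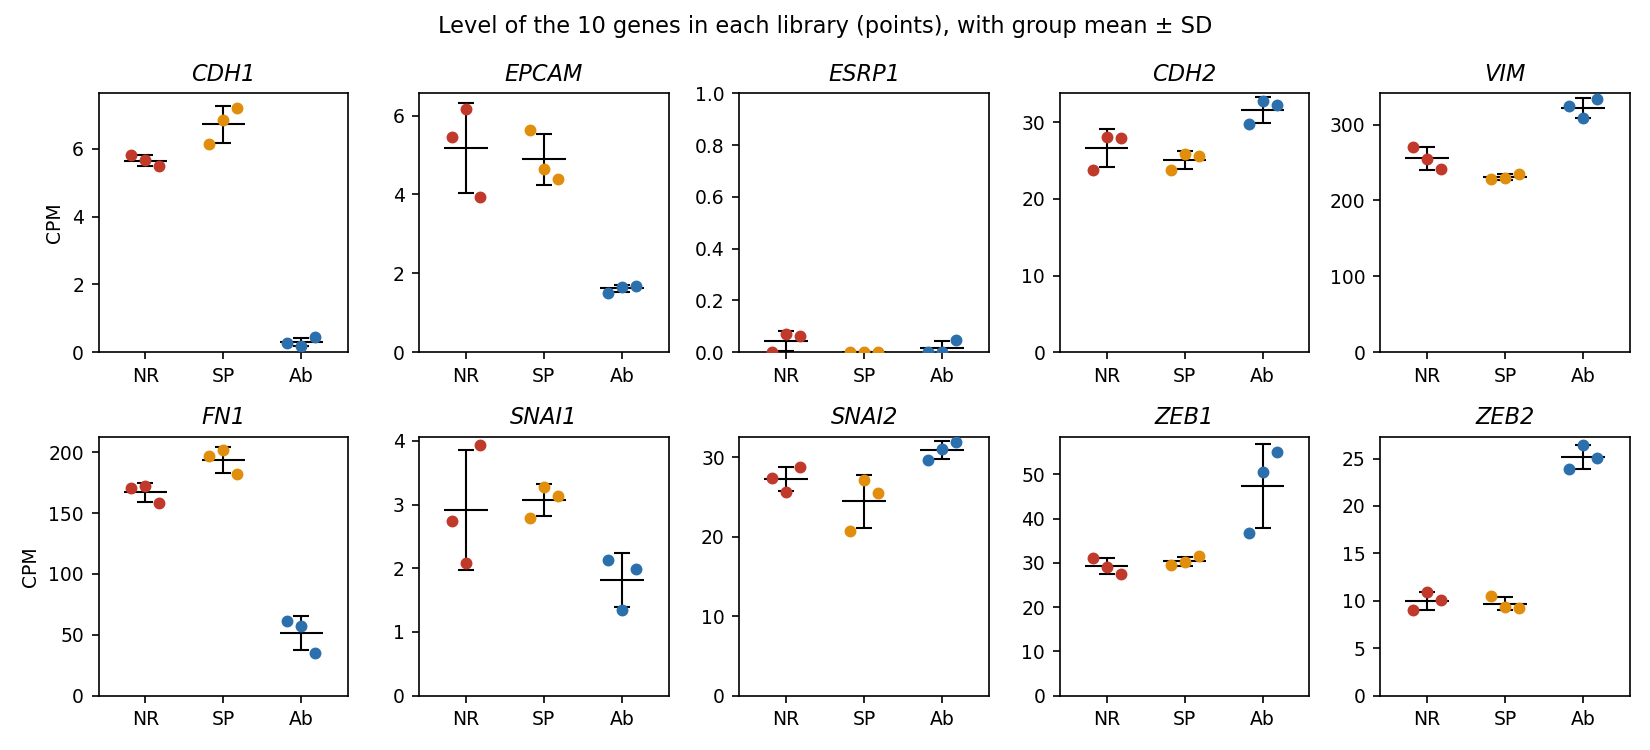
Level of each of the 10 genes in CPM (vertical axes, linear, each from 0) in the NR, SP and Ab groups, with a point for each library and the group mean ± SD in black. CDH1, EPCAM and FN1 lie above Ab in all NR and SP libraries, ZEB2 lies below, and ESRP1 is at or near 0 in all 9 libraries.

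CDH1 encodes E-cadherin, the adhesion molecule of the epithelial adherens junction, and lies on chromosome 16 at 68771195 to 68869440 on the plus strand of GRCh37. It had 150, 79 and 88 counts in NR (5.8, 5.66 and 5.48 CPM) and 134, 159 and 149 in SP (6.13, 6.85 and 7.20 CPM). In Ab it had 5, 5 and 9 counts (0.260, 0.192 and 0.436 CPM), just above the limit that a count of 0 allows. All 6 particle libraries lay far above all 3 Ab libraries. The log2 fold change was 4.27 ± 0.27 (SE, edgeR adjusted p = 3.24e-14) in NR against Ab, or 19.2-fold, and 4.52 ± 0.26 (SE, edgeR adjusted p = 5.23e-15) in SP against Ab, or 23-fold. With so few counts in Ab the size of the fold is uncertain, and the 95% intervals ran from 3.71 to 4.82 and from 3.99 to 5.05. Without Ab1 and Ab2 the log2 values were 3.69 and 3.94. In bulk RNA, more cells that hold a transcript and more of it in each cell cannot be told apart.

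EPCAM, a surface glycoprotein of epithelial cells that is used to catch carcinoma cells from blood, lies on chromosome 2 at 47572297 to 47614740 on the plus strand. It had 5.45, 6.16 and 3.93 CPM in NR, 5.63, 4.65 and 4.40 in SP, beside 1.51, 1.65 and 1.69 in Ab. The lowest particle library, NR3, was well above the highest Ab library, and NR had the widest spread. EPCAM rose by a log2 value of 1.68 ± 0.20 (SE, edgeR adjusted p = 2.56e-08) in NR and 1.60 ± 0.19 (SE, edgeR adjusted p = 2.5e-08) in SP.

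ESRP1 encodes an epithelial splicing factor that keeps the epithelial isoforms of CD44 and FGFR2, and lies on chromosome 8 at 95653302 to 95719694. It had 2 counts over the 3 NR libraries, 0 over the SP libraries and 1 over the Ab libraries, and could not be tested. ESRP1 thus stood at 1 count or less in every library, too few to compare the groups at this depth. Its paralog ESRP2, with the same splicing role, had 40.8, 38.8 and 43.2 CPM in NR, 47.7, 44.2 and 48.2 in SP, against 28.6, 25.9 and 28.6 in Ab, a gene singled out after its values were seen. Of the 3 epithelial genes, CDH1 and EPCAM rose and ESRP1 stayed at the limit.

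VIM encodes vimentin, the intermediate filament of mesenchymal cells, and lies on chromosome 10 at 17270240 to 17279592 on the plus strand. It had 271, 254 and 241 CPM in NR, 228, 230 and 235 in SP, beside 325, 308 and 334 in Ab. All particle libraries were below all Ab libraries, and all SP libraries were below all NR libraries. VIM fell by a log2 value of 0.33 ± 0.05 (SE, edgeR adjusted p = 4.25e-07) in NR and of 0.47 ± 0.05 (SE, edgeR adjusted p = 3.13e-10) in SP. It remained the highest of the 10 genes per kb in every group. Of its exon bases, 24.6% are shared with genes on the other strand, of which VIM-AS1 had 24 to 63 counts in a library.

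CDH2 encodes N-cadherin, the cadherin of mesenchymal and neural cells, and lies on chromosome 18 at 25512843 to 25757910 on the minus strand. It had 23.8, 28.1 and 28.0 CPM in NR, 23.7, 25.8 and 25.6 in SP, against 29.7, 32.8 and 32.3 in Ab. The groups were close, and the highest NR library lay just under the lowest Ab library. CDH2 fell by a log2 value of 0.26 ± 0.08 (SE, edgeR adjusted p = 0.00425) in NR and of 0.33 ± 0.07 (SE, edgeR adjusted p = 0.000248) in SP. Without NR1, the lowest NR library, the log2 fold change in NR against Ab was -0.18 with an edgeR adjusted p of 0.0592.

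FN1 encodes fibronectin, the matrix glycoprotein that binds integrins, and lies on chromosome 2 at 216225163 to 216300796 on the minus strand. It moved against the other mesenchymal genes, with 171, 172 and 158 CPM in NR, 197, 202 and 182 in SP, beside 61.3, 57.6 and 35.3 in Ab. The 3 groups did not overlap, with SP highest and Ab lowest. FN1 rose by a log2 value of 1.70 ± 0.23 (SE, edgeR adjusted p = 0.00248) in NR, or 3.25-fold, and 1.92 ± 0.23 (SE, edgeR adjusted p = 0.00168) in SP, or 3.78-fold. Ab1 and Ab2, the libraries high in COL1A2, had more FN1 than Ab3, and without them the log2 values were 2.25 and 2.46. The rise in FN1 was thus larger against Ab3 alone. Without Ab3 it was smaller, with log2 values of 1.49 in NR and 1.71 in SP.

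Because fibroblasts make fibronectin, the 9 fibroblast markers are given beside FN1. Of the 8 that were tested in NR against Ab, 4 rose, 0 fell and 4 did not pass, and the same numbers held in SP against Ab, with median log2 values of 1.52 and 1.71. Passing genes were thus 4 in 8, beside 72.7% and 73.0% of all genes, and 36.4% of all genes passed higher in each comparison. LUM, a matrix proteoglycan and the highest of the list per kb, had 38.1, 36.8 and 36.8 CPM in NR, 37.7, 38.4 and 38.7 in SP, against 0.936, 0.920 and 0.968 in Ab. DCN, a related proteoglycan, had 20, 20.1 and 19.4 CPM in NR, 20.3, 21.2 and 21.7 in SP, beside 0.468, 0.805 and 0.339 in Ab. The particle groups thus lay far above Ab for both genes, with log2 fold changes of 5.30 ± 0.12 (SE) and 5.14 ± 0.18 (SE) in NR. PDGFRB rose by 4.65 ± 0.21 (SE) in NR and 4.79 ± 0.20 (SE) in SP. FAP, singled out after its values were seen, rose by 2.41 ± 0.40 (SE) and 2.70 ± 0.38 (SE). COL1A1, COL1A2, COL3A1 and PDGFRA did not pass in either comparison, with edgeR adjusted p-values for COL1A2 of 0.068 and 0.109. THY1, a surface marker of fibroblasts, had at most 1 count in any library. The summed level of the list was 116, 109 and 106 CPM in NR, 116, 122 and 124 in SP, against 49.6, 46.1 and 20.3 in Ab. The part of these genes in the FN1 result was not tested.

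**Figure D2:**
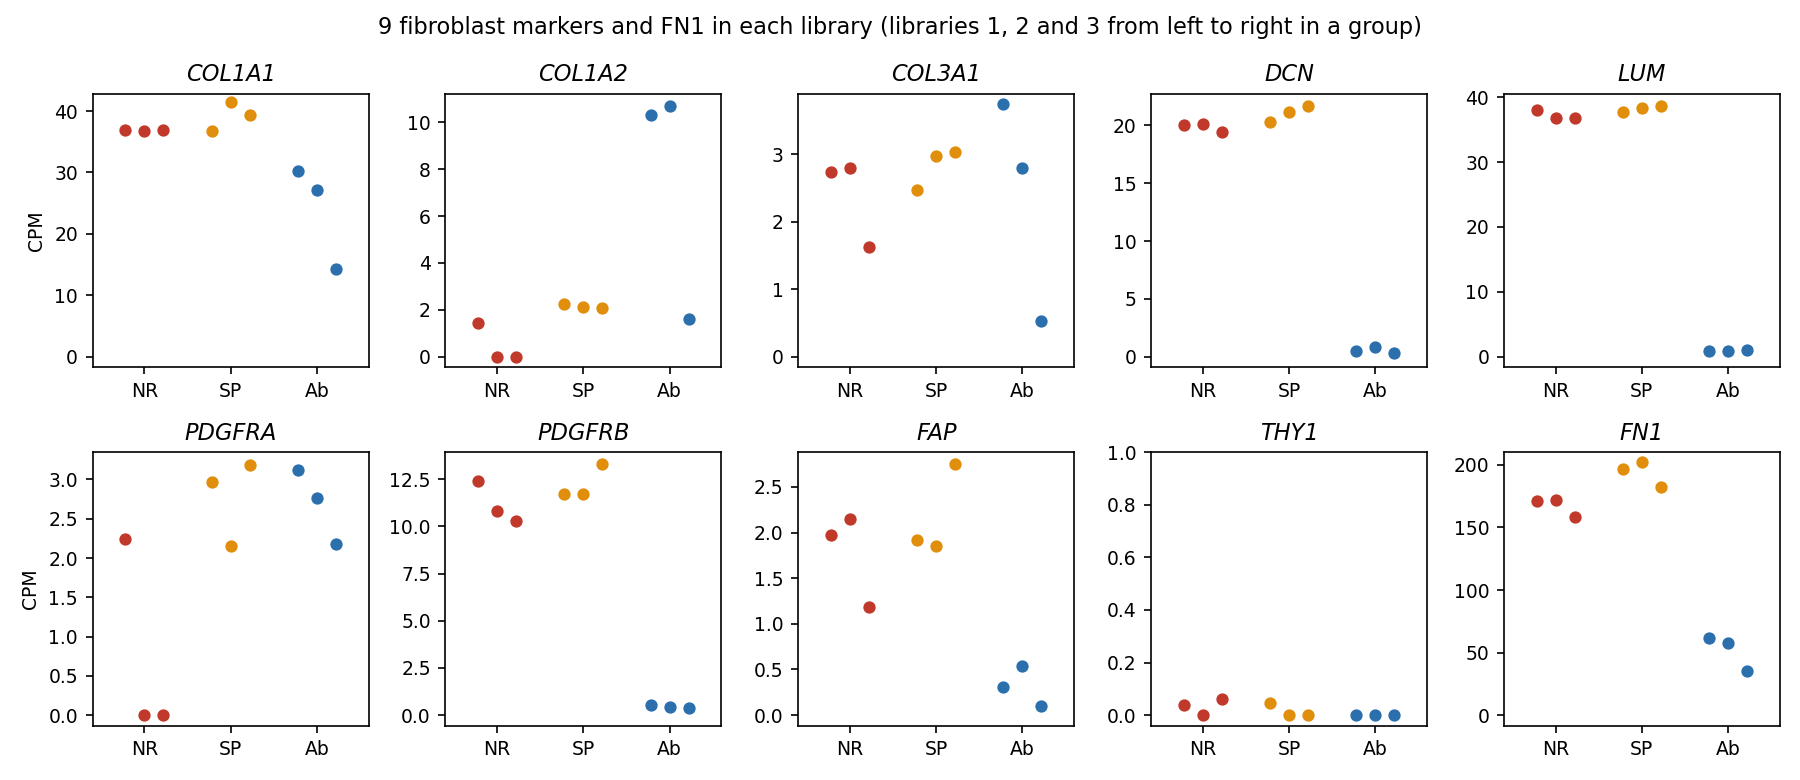
Level of the 9 fibroblast markers and FN1 in CPM (vertical axes, linear) in each library of the NR, SP and Ab groups. DCN, LUM, PDGFRB and FAP are high in all 6 particle libraries, whereas COL1A2 and PDGFRA are at 0 in NR2 and NR3 and COL1A2 is highest in Ab1 and Ab2.

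As FN1 was the gene of the 10 that passed in all 3 comparisons, the bases before its start are shown. Its difference between NR and SP was uncertain, as given below. RefSeq places its transcription start on the minus strand of GRCh38.p14, and the 250 bases before it are chr2:215436069-215436318. The capitals mark TGACGTCA, the palindromic letters of the cAMP response element, found at position -183 from the start.
FN1: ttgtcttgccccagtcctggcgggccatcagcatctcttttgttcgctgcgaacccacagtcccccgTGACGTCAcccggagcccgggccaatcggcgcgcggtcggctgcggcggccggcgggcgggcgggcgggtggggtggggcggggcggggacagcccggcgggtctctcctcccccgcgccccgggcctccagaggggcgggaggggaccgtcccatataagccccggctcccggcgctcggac
The letters TGACGTCA were found in 1.85% of 35116 promoter windows of the table, each running from 250 bases before to 50 bases after a start. The same FN1 window held CCAAT at -162, which 34.6% of all windows held on either strand, and 6 matches to GGGCGG, part of them overlapping, which 45.0% held. It held no CAGGTG, the E-box letters searched on both strands, which 20.6% of windows held, nor did the windows of VIM, ZEB2 and CDH2, while 2 of the 7 ZEB1 windows did. RefSeq windows were matched for VIM, FN1, ZEB1, ZEB2 and CDH2, and those of CDH1, EPCAM, ESRP1, SNAI1 and SNAI2 were not used here. A match of letters is a description of the sequence and not a binding site.

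ZEB2 encodes a zinc finger repressor of CDH1 and lies on chromosome 2 at 145121931 to 145278624 on the minus strand. It had 9.01, 10.9 and 10.1 CPM in NR, 10.5, 9.35 and 9.27 in SP, beside 23.9, 26.4 and 25.1 in Ab. The particle libraries lay together well under the Ab libraries, with little spread in any group. ZEB2 fell by a log2 value of 1.34 ± 0.09 (SE, edgeR adjusted p = 3.33e-13) in NR, a change of 2.54-fold, and of 1.36 ± 0.09 (SE, edgeR adjusted p = 1.87e-13) in SP, a change of 2.57-fold. Of its exon bases, 16.3% are shared with ZEB2-AS1 and AC009951.1, which had 0 counts in all libraries.

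ZEB1, the related repressor, lies on chromosome 10 at 31607424 to 31818742 on the plus strand. It had 31.2, 29 and 27.5 CPM in NR, 29.4, 30.1 and 31.5 in SP, against 36.8, 50.4 and 55.1 in Ab. The Ab libraries were all higher but spread widely, with Ab1 nearest to the particle groups. ZEB1 fell by a log2 value of 0.69 ± 0.16 (SE, edgeR adjusted p = 0.00909) in NR and of 0.64 ± 0.14 (SE, edgeR adjusted p = 0.00391) in SP. Against Ab3 alone, with Ab1 and Ab2 left out, the log2 values were -0.89 and -0.85.

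The microRNAs that are known to bind both ZEB transcripts are shown because both transcripts held several matches to their seeds. The mature sequences are from RefSeq, and the capitals mark the seed, bases 2 to 8. The 5 members share 2 seeds, the first in miR-141-3p and miR-200a-3p and the second in the other three.
hsa-miR-141-3p: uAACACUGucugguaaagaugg
hsa-miR-200a-3p: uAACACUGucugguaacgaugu
hsa-miR-200b-3p: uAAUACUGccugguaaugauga
hsa-miR-200c-3p: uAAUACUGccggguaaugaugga
hsa-miR-429: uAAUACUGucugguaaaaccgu
In the 3′ UTR of the canonical transcript, ZEB1 held 3 matches to the first seed and 6 to the second, and ZEB2 held 4 and 5. Of 18996 such UTRs, 18.4% held a match to the first seed and 16.3% to the second, and 1.01% and 0.884% held 3 or more. The UTRs of ZEB1 and ZEB2 were 2540 and 5370 bases long, and longer UTRs hold more matches. FN1 held 0 and 2 matches, ESRP1 1 and 1, SNAI2 0 and 1, and CDH1, EPCAM, CDH2, VIM and SNAI1 none to either seed.

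The first match to the second seed in each ZEB transcript is shown with its surrounding bases in GRCh37, at chr10:31816545-31816574 on the plus strand for ZEB1 and at chr2:145146613-145146642 on the minus strand for ZEB2. The capitals mark the match.
ZEB1: cattgttttatcttatCAGTATTatcactc
ZEB2: ccgcactaccatacatCAGTATTtttatta
Mature microRNAs were not measured by these poly-A libraries. The host gene MIR200CHG and the loci MIR200A, MIR200B, MIR200C and MIR141 had 0 counts in all 9 libraries, and MIR429 had 1 count in Ab3.

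SNAI1 and SNAI2 encode the zinc finger factors Snail and Slug. SNAI1, on chromosome 20 at 48599517 to 48605423 on the plus strand, had 2.74, 2.08 and 3.93 CPM in NR, 2.79, 3.27 and 3.14 in SP, beside 2.13, 1.34 and 1.99 in Ab. NR2 lay within the range of Ab, and the SP libraries lay above it. SNAI1 rose by a log2 value of 0.71 ± 0.25 (SE, edgeR adjusted p = 0.0118) in NR and 0.78 ± 0.22 (SE, edgeR adjusted p = 0.00241) in SP. In NR the adjusted p was above 0.05 with single libraries left out, since without NR3 the value was 0.46 (edgeR adjusted p = 0.131) and without Ab2 it was 0.51 (edgeR adjusted p = 0.0879). Without Ab1 and Ab2 it was 0.57 in NR and 0.63 in SP, with edgeR adjusted p-values of 0.125 and 0.0708, and DESeq2 gave an adjusted p of 0.0705 in NR.

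SNAI2, on chromosome 8 at 49830157 to 49834299 on the minus strand, had 27.4, 25.7 and 28.8 CPM in NR, 20.7, 27.2 and 25.5 in SP, against 29.7, 31.1 and 31.9 in Ab. The highest NR library lay just under the lowest Ab library, and SP1 was the lowest of the 9. SNAI2 fell by a log2 value of 0.18 ± 0.07 (SE, edgeR adjusted p = 0.0315) in NR and of 0.33 ± 0.08 (SE, edgeR adjusted p = 0.00122) in SP. In NR the adjusted p was above 0.05 without NR1 (0.0576), without NR2 (0.121), without Ab2 (0.0724) and without Ab3 (0.0982), and it was 0.117 with DESeq2, 0.0654 with scaling by library totals only and 0.0565 without Ab1 and Ab2. The small fall of SNAI2 in NR is therefore uncertain.

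**Figure D3:**
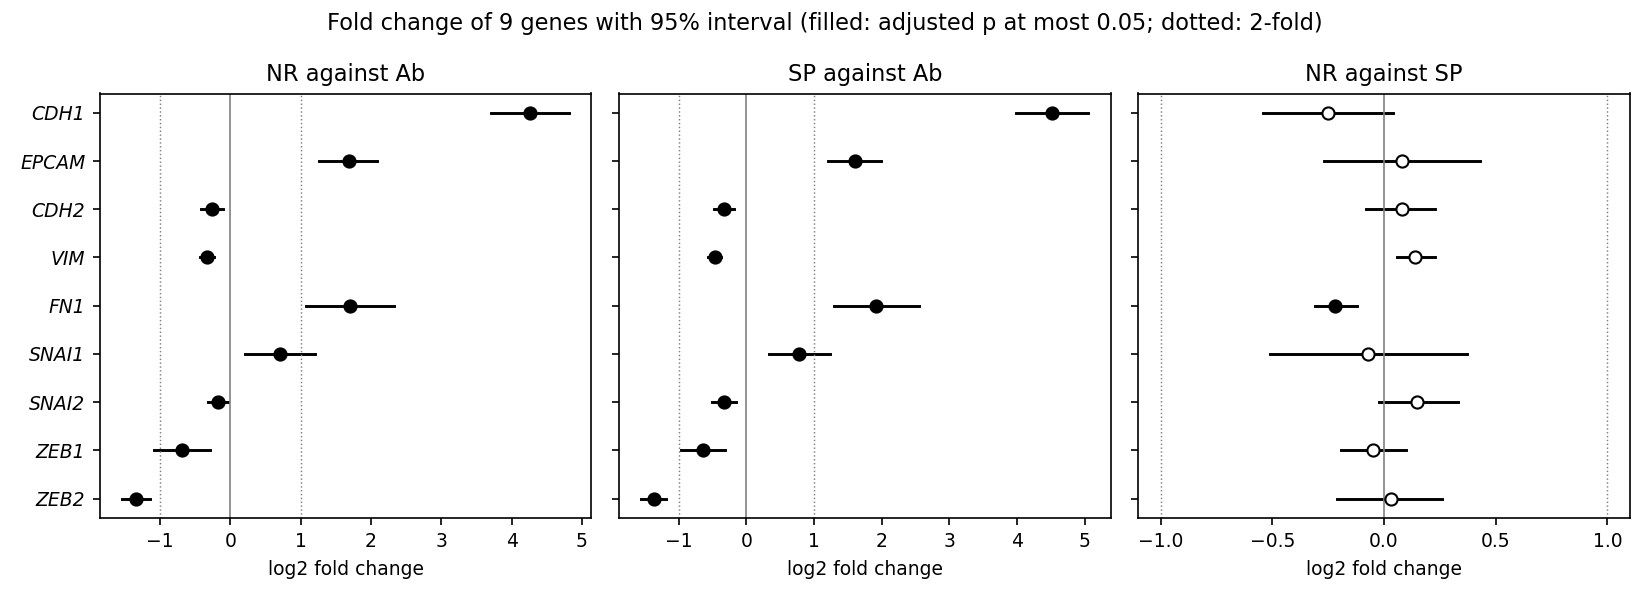
Log2 fold change (horizontal axes) of the 9 tested genes in NR against Ab, SP against Ab and NR against SP, with 95% intervals as lines, filled points for an adjusted p of at most 0.05 and dotted lines at 2-fold. CDH1 at 4.27 and 4.52 lies farthest from 0 in both comparisons with Ab, and in NR against SP the filled point is FN1 at -0.22.

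Per kb of exon, the Ab group was ordered as VIM (62.2 ± 2.53 CPM per kb, SD, n = 3), SNAI2 (9.42 ± 0.333), ZEB1 (5.48 ± 1.10), CDH2 (3.69 ± 0.194), FN1 (2.98 ± 0.814), SNAI1 (1.07 ± 0.247), ZEB2 (0.961 ± 0.0478), EPCAM (0.665 ± 0.0400) and CDH1 (0.0487 ± 0.0207). CDH2 and FN1, and SNAI1 and ZEB2, did not differ beyond their SDs. The mesenchymal genes and factors thus held the top of the order and the epithelial genes the bottom. In NR the order was VIM (49.3 ± 2.89), FN1 (9.70 ± 0.458), SNAI2 (8.31 ± 0.479), ZEB1 (3.38 ± 0.218), CDH2 (3.10 ± 0.285), EPCAM (2.13 ± 0.470), SNAI1 (1.71 ± 0.549), CDH1 (0.930 ± 0.0259) and ZEB2 (0.382 ± 0.0362). ZEB1 and CDH2, and EPCAM and SNAI1, did not differ beyond their SDs. SP had the same order as NR, from VIM (44.6 ± 0.645) and FN1 (11.2 ± 0.596) to CDH1 (1.11 ± 0.0896) and ZEB2 (0.371 ± 0.0268), and there EPCAM and SNAI1 did not differ beyond their SDs. With either particle, FN1 stood second and CDH1 stood above ZEB2 per kb, but CDH1 was still under VIM, SNAI2, ZEB1 and CDH2. The order depends on the merged exon length, which was 26151 bases for ZEB2, 17216 for FN1 and 6076 for CDH1. In CPM, ZEB2 was above CDH1, with means of 10 against 5.65 in NR and 9.71 against 6.73 in SP.

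The ratio of a mesenchymal gene to CDH1 within a library does not depend on scaling between libraries. The ratio of VIM to CDH1 per kb was 1465, 1885 and 899 in Ab, beside 54.8, 52.6 and 51.5 in NR and 43.8, 39.4 and 38.3 in SP. That of CDH2 to CDH1 was 81.0, 121 and 52.5 in Ab, beside 2.91, 3.51 and 3.61 in NR and 2.74, 2.67 and 2.52 in SP. Both ratios were above 1 in every library, highest in Ab and lowest in SP, and no 2 groups overlapped. In NR and SP their values lay within a narrow range, while in Ab they spread with the 5 to 9 counts of CDH1.

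**Figure D4:**
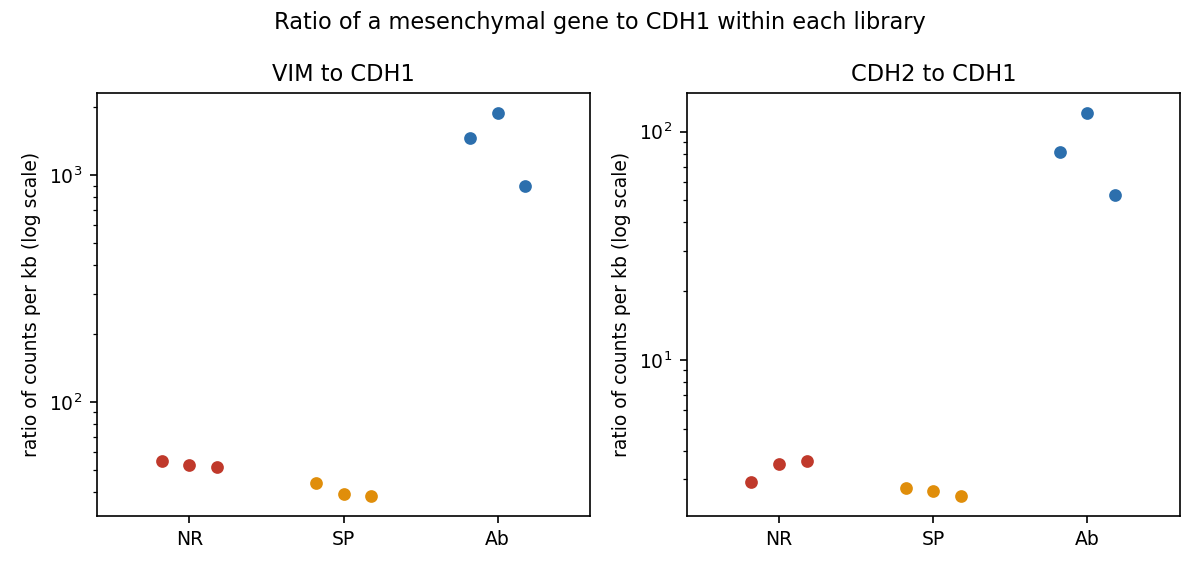
Ratio of VIM to CDH1 (left) and of CDH2 to CDH1 (right) in counts per kb of exon, on logarithmic axes, with a point for each library. The Ab libraries lie at 899 to 1885 and at 52.5 to 121, and the particle libraries at 38.3 to 54.8 and at 2.52 to 3.61.

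NR and SP differed little in these genes. Of the 9 tested, FN1 passed, with a log2 fold change of -0.22 ± 0.04 (SE, edgeR adjusted p = 0.0256) in NR against SP, beside 0.443% of all 14903 genes tested. None was called, beside 0.0201% of all genes, and 2 of the 9 had an unadjusted p under 0.05. The groups did not overlap for CDH1, VIM and FN1, 3 of the 9, beside 17.8% of all genes. FN1 was lower in all 3 NR libraries than in any SP library, but its adjusted p was 0.07 without NR2, 0.124 without NR3, 0.114 without SP1 and 0.143 without SP2. It was 0.738 with all 9 libraries in 1 fit and 0.296 without NR2 and NR3, so this difference is uncertain too. VIM was higher in NR by a log2 value of 0.14 (95% interval 0.06 to 0.23, edgeR adjusted p = 0.102), and CDH1 had a value of -0.25 (-0.54 to 0.04, edgeR adjusted p = 0.463).

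For the other 6 genes the intervals of NR against SP held 0, and they bound how far the 2 particles could differ. They ran from -0.27 to 0.43 for EPCAM, from -0.08 to 0.23 for CDH2, from -0.51 to 0.37 for SNAI1, from -0.02 to 0.33 for SNAI2, from -0.19 to 0.10 for ZEB1 and from -0.21 to 0.26 for ZEB2. A 2-fold difference between nanorods and nanospheres thus lay outside all 9 intervals. The median log2 fold change of the 9 genes was 0.03, and that of all genes was -0.00046.

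Genes were ranked by how closely their log2 CPM, centred on the mean of the gene, followed that of CDH1 or VIM over the 9 libraries among 14435 genes. Nearest to CDH1 were SCIN, an actin-severing protein, at a root mean square distance of 0.185, CPED1 at 0.266 and PHOSPHO1, a phosphatase of bone mineral formation, at 0.288. SCIN had 63.7, 69.7 and 71.1 CPM in NR, 65.4, 62.2 and 63.5 in SP, beside 2.96, 2.18 and 4.07 in Ab. Nearest to VIM were PSMG1, a chaperone of proteasome assembly, at 0.0313, UNC50 at 0.0422 and PDCD5 at 0.0457. Among the 9 genes themselves, CDH2 and SNAI2 lay closest at 0.11, followed by CDH2 and VIM at 0.13 and VIM and SNAI2 at 0.137, and CDH1 and ZEB2 lay farthest apart at 2.76. EPCAM and FN1, one an epithelial and one a mesenchymal gene, lay at 0.32.

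The counts of the following lists are read beside the shares of all genes tested, of which 36.4% passed higher and 36.4% lower in NR against Ab, and 36.4% higher and 36.6% lower in SP against Ab. Of the 9 adherens junction genes 8 were tested, and 6 rose and 1 fell in both comparisons with Ab, a passing total of 7 in 8 beside 72.7% and 73.0% of all genes, and the median of the tested genes was 0.36 in NR and 0.53 in SP on the log2 scale. CTNND1, the p120 catenin that holds cadherins at the membrane, rose by 1.99-fold in NR and 2.05-fold in SP (SE 0.05 on the log2 scale), though its level is uncertain because 39.1% of its exon sequence overlaps other genes, and CTNNB1, beta-catenin, by a log2 value of 0.63 ± 0.04 (SE) and 0.68 ± 0.04 (SE). AFDN, the adaptor of nectins, fell by a log2 value of 0.98 ± 0.07 (SE) in both. CTNNA1, alpha-catenin and the highest of the list per kb, had 0.06 and 0.09 and did not pass in either. The catenin transcripts were abundant in all groups, also in Ab, where CDH1 was near its limit. Their proteins were not measured in these libraries.

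Tight junction genes passed in both directions, in shares near those of all genes (36.4% higher and 36.4% lower in NR, 36.4% and 36.6% in SP). In NR against Ab 6 rose and 5 fell of 14 tested, and in SP against Ab 7 rose and 6 fell of 15, with median log2 values of -0.00052 and 0.09. F11R, the adhesion molecule JAM-A, had 18.8, 20.9 and 18.9 CPM in NR, 20.5, 19.9 and 20.1 in SP, against 2.13, 1.61 and 1.36 in Ab, and rose by a log2 value of 3.53 ± 0.15 (SE, edgeR adjusted p = 1.82e-18) in NR and 3.59 ± 0.14 (SE) in SP. Of the exon bases of F11R 36.6% are shared with other genes, so its level is uncertain. The scaffold gene TJP3 rose by 2.22 ± 0.11 (SE) and 2.30 ± 0.11 (SE), and the polarity gene LLGL2 by 0.86 ± 0.05 (SE) in both. CLDN1, a claudin and the highest of the list per kb, fell by 0.76 ± 0.05 (SE) in NR and by 0.79 ± 0.05 (SE) in SP. Of the 8 desmosome genes, 5 rose and 1 fell in both comparisons, with medians of 0.21 and 0.37, among them JUP, plakoglobin, up by 0.46 ± 0.04 (SE) in NR and PKP2 by 0.45 ± 0.08 (SE), while DSP, desmoplakin, fell by 0.29 ± 0.04 (SE).

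Keratins and epithelial regulators passed in both directions, as all genes did (36.4% higher and 36.4% lower in NR, 36.4% and 36.6% in SP). Of the 4 keratins tested, 2 rose and 2 fell in both comparisons (medians -0.28 and -0.20), with KRT8 at 1846, 1881 and 1921 CPM in NR, 2020, 1924 and 1949 in SP, beside 678, 642 and 653 in Ab, a rise of 1.52 ± 0.04 (SE) and 1.59 ± 0.04 (SE). KRT7 fell by 1.12 ± 0.04 (SE) in NR and by 0.93 ± 0.13 (SE) in SP, and KRT80 by 1.76 ± 0.04 (SE) and 1.62 ± 0.05 (SE). Of the 10 epithelial transcription and splicing regulators 7 were tested, of which 4 rose and 3 fell with NR, whereas 4 rose and 2 fell with SP (medians 0.36 and 0.35). EHF, an ETS factor of epithelia, had 8.62, 8.46 and 8.10 CPM in NR, 9.47, 8.27 and 8.89 in SP, against 0.312, 0.498 and 0.484 in Ab, a rise of 4.24 ± 0.22 (SE, edgeR adjusted p = 4.34e-16) in NR and 4.33 ± 0.22 (SE) in SP. KLF4 fell by 1.69 ± 0.05 (SE) and 1.60 ± 0.05 (SE), and KLF5, the highest of the list per kb, by 1.10 ± 0.04 (SE) and 1.15 ± 0.05 (SE). GRHL2, a grainyhead factor that is known to oppose ZEB1, was singled out after its values were seen. It had 11, 8 and 10 counts in NR, 8, 13 and 7 in SP and 0 in all Ab libraries, at least 3.98-fold higher in NR and at least 3.11-fold higher in SP against 3 counts per library.

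Of the 11 epithelial surface and sorting genes 6 were tested, and 4 rose and 0 fell in both comparisons, with a median of 1.39 in NR and 1.25 in SP. The passing total of 4 in 6 was near the 72.7% and 73.0% of all genes, whereas 36.4% of all genes passed higher in each comparison. The protease gene ST14, matriptase, rose by 2.03 ± 0.08 (SE) and 1.94 ± 0.08 (SE), AP1M2, a sorting adaptor of epithelial cells, by 1.84 ± 0.07 (SE) and 1.71 ± 0.07 (SE), and the mucin gene MUC1, the highest of the list per kb, by 1.86 ± 0.05 (SE) and 1.86 ± 0.06 (SE). RAB25 stood at 3 counts or less in every library. This was the list with the highest median of the epithelial lists in both comparisons, which is given as a description.

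Of 10 other transcription factors of the transition, TWIST1, TCF4, PRRX1, GSC and KLF8 stood at 3 counts or less in every library. In NR against Ab 3 of the 4 tested fell and 0 rose, and in SP against Ab 3 of 5 fell and 1 rose, with medians of -0.72 and -0.52. These totals, 3 of 4 and 4 of 5, were near the 72.7% and 73.0% of all genes that passed. FOXC2 had 29.9, 37.1 and 30.8 CPM in NR, 26.4, 30.1 and 27.8 in SP, beside 111, 104 and 108 in Ab, and fell by 1.73 ± 0.07 (SE, edgeR adjusted p = 1.5e-18) in NR and by 1.93 ± 0.06 (SE) in SP. TCF3, the E-protein of the list with the highest level per kb, fell by 0.46 ± 0.05 (SE) and 0.52 ± 0.05 (SE). The gene that rose in SP was SNAI3, with 6, 10 and 2 counts in Ab, singled out after its values were seen.

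Mesenchymal matrix and cytoskeleton genes also passed in both directions. Of 30 tested, 13 rose and 8 fell in NR against Ab, and 15 rose and 8 fell in SP against Ab, with medians of 0.07 and 0.26, beside 36.4% higher and 36.4% lower of all genes in NR and 36.4% and 36.6% in SP. The passing totals were thus near the share of all genes. SPARC and COL1A2, uneven within NR and Ab as given above, did not pass in either comparison, and POSTN was not tested. Their log2 values in NR against Ab were -3.09 ± 1.10 (SE) for SPARC and -3.56 ± 1.31 (SE) for COL1A2. S100A4, a calcium-binding protein of motile cells and the highest of the list per kb, rose by 1.26 ± 0.04 (SE) and 1.16 ± 0.05 (SE). The receptor kinase gene AXL fell by 1.52 ± 0.05 (SE) and 1.36 ± 0.05 (SE). Of 18 tested genes of TGF-beta and BMP signalling, a pathway that drives the transition in many cells, 6 rose and 6 fell in NR, and 7 rose and 8 fell in SP, with a median of -0.10 in both, again beside these shares of all genes. ID1, a BMP target and the highest of the list per kb, fell by 0.85 ± 0.05 (SE) in NR and by 0.57 ± 0.05 (SE) in SP, SKIL fell by 0.85 ± 0.05 (SE) and 0.79 ± 0.05 (SE), and the receptor gene TGFBR2 rose by 0.72 ± 0.05 (SE) and 0.70 ± 0.05 (SE).

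**Figure D5:**
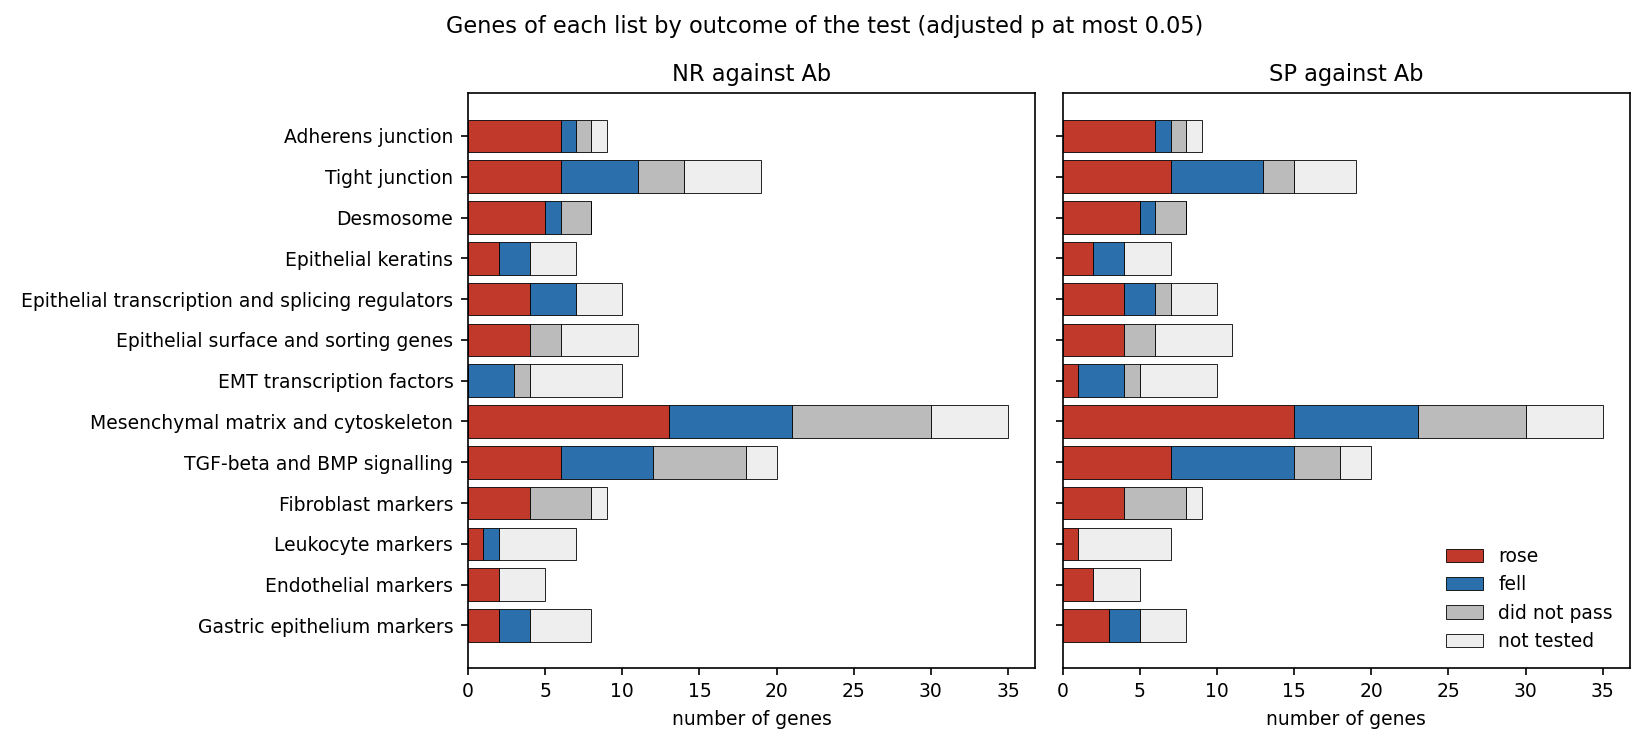
Number of genes of each list (horizontal axes) that rose, fell, did not pass or were not tested in NR against Ab (left) and SP against Ab (right). In the epithelial surface and sorting list 4 genes rose and 0 fell in both comparisons, whereas the mesenchymal matrix list held 13 and 15 that rose and 8 that fell.

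Markers of other cells also differed between the particle groups and Ab, where 72.7% and 73.0% of all genes passed. Of 5 endothelial markers 4 were matched and 2 tested, and both passed higher. CDH5, VE-cadherin and the highest of the list per kb, had 21.5, 21.8 and 19.8 CPM in NR and 19.4, 21.2 and 22.3 in SP. In Ab it had 3.59, 3.76 and 5.08, and its log2 rise was 2.35 ± 0.12 (SE) in both comparisons. VWF had 34, 21 and 21 counts in NR, 28, 33 and 34 in SP, against 0, 0 and 1 in Ab. With Ab at or near 0, no fold is given for VWF and no median for the list. TEK had 3 counts or less in every library. The summed level of the list was 22.9, 23.3 and 21.1 CPM in NR, 20.8, 22.7 and 24.1 in SP, beside 3.8, 3.79 and 5.23 in Ab. The leukocyte markers PTPRC, CD3E, CD68 and LCP1 were at 3 counts or less in every library, and the sum of that list was 2.67, 2.87 and 2.18 CPM in NR, 2.61, 2.71 and 3.19 in SP, against 2.13, 1.15 and 1.16 in Ab. CD14 fell by 1.52 ± 0.57 (SE) in NR. Of the gastric markers, 2 rose and 2 fell of 4 tested in NR against Ab, and 3 rose and 2 fell of 5 in SP against Ab. MUC5AC fell by 2.15 ± 0.06 (SE) in NR and by 1.75 ± 0.32 (SE) in SP. MUC6 also fell, with 3, 1 and 0 counts in NR, 2, 2 and 0 in SP, against 12, 23 and 17 in Ab. Its particle libraries stood at 3 counts or less, so no fold is given. Among those that rose, PGC had 2.77 ± 0.38 (SE) and 2.32 ± 0.41 (SE). The share of mitochondrial counts was also higher with particles, at 4.59%, 4.36% and 4.41% in NR and 4.66%, 4.47% and 4.40% in SP beside 3.71%, 3.41% and 3.54% in Ab. The part of these differences in the values of the 10 genes was not tested. No sequencing or culture batch is given in the labels, so a batch and the group cannot be told apart.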

How the data were processed

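After read trimming and filtering, the authors aligned reads with HISAT2 2.1.0 and deposited whole read counts per Ensembl gene, not scaled between libraries. Hg19 is named as the genome in the reporting summary, whereas the submitters' processing notes list mm9. The deposited IDs are human. The counter is named as Counts or HTSeq, and the annotation release and use of strand are not given in the sources used here, so genes that share exons are uncertain. The authors used DESeq2 1.16.1. Of 60880 IDs, 59858 were found in GENCODE release 44 lifted to GRCh37, and the other 1022 held at most 0.115% of a library. Of 154 further listed genes, 152 were matched.

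The counts were tested with edgeR 4.0.16 in R 4.3.3 (TMM, filterByExpr with minimum count 10 and minimum total 15, robust quasi-likelihood, Benjamini-Hochberg adjustment over all genes) for 3 comparisons. The genes and lists were chosen with earlier results of these data known. Named genes are the 10, and in each list the 3 with the smallest adjusted p in NR against Ab and the highest per kb. A few genes that this rule names are left out of the text. COL1A1, COL1A2, COL3A1 and CLDN18 are each in 2 lists. The authors describe the libraries as biological replicates and state that in vitro experiments were repeated independently, whereas the labels do not tie each library to a separate culture, and p-values measure the spread between these libraries. No replicate libraries agreed within sampling noise (chi-square per gene 1.80 to 6.81). Alternatives were DESeq2 1.42.0, RLE size factors, library totals, other filters, all libraries in 1 fit, a replicate block, a 1.5-fold minimum and libraries left out.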

Additional observations from a re-analysis of the deposited data

Results flagged for a closer look

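In NR against SP, 4 of the genes in the lists had an adjusted p of at most 0.05, beside 0.443% of all genes tested. FN1 had a log2 fold change of -0.22 (edgeR adjusted p = 0.0256), PPL, the desmosomal gene periplakin, of -0.20 (edgeR adjusted p = 0.047), COL5A1, a collagen chain, of -0.16 (edgeR adjusted p = 0.0474) and ID1 of -0.27 (edgeR adjusted p = 0.0137). All 4 were lower in NR than in SP. FN1, PPL and COL5A1 were above Ab with both particles, and ID1 was below Ab with both. The FN1 difference no longer passed with all 9 libraries in 1 fit (edgeR adjusted p = 0.738) or without NR2, NR3, SP1 or SP2, PPL and COL5A1 lay at the threshold, and no alternative was run for PPL, COL5A1 or ID1.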

How the results depend on the processing

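Against Ab, none of the 250 recomputed values of the 9 genes changed direction. In NR against Ab 12 of 125 values no longer passed, all of them SNAI1, SNAI2 or CDH2, and in SP against Ab 1 of 125, SNAI1 without Ab1 and Ab2. DESeq2 gave SNAI1 0.70 (adjusted p = 0.0705) and SNAI2 -0.17 (adjusted p = 0.117) in NR, and library totals gave SNAI2 -0.15 (edgeR adjusted p = 0.0654). With at least 10 counts required in every library CDH1 could not be tested against Ab, so that 8 genes passed and 3 were called in both comparisons, and a 1.5-fold minimum called 6 in both. Over the alternatives that tested them CDH1 ran from 3.69 to 4.64 in NR and from 3.94 to 4.90 in SP, and ZEB2 from -1.41 to -1.27 and from -1.43 to -1.32. In NR against SP, the count of 1 gene that passed became 0 with all 9 libraries in 1 fit and with NR2 and NR3 left out, and it ran from 0 to 1 with single libraries left out. There FN1 ran from -0.26 to -0.18, and with single libraries left out EPCAM ran from -0.04 to 0.23, SNAI1 from -0.32 to 0.09 and ZEB2 from -0.04 to 0.11. Values with no call changed sign, ZEB2 to -0.11, CDH2 to -0.07 and ZEB1 to 0.04 without NR2 and NR3, EPCAM to -0.04, SNAI1 to 0.09 and ZEB2 to -0.04 without NR2, and ZEB2 to -9.9e-05 without SP2 and -0.01 without SP3. The cause was not tested. With the replicate number as a block, 9, 9 and 1 genes passed and 4, 4 and 0 were called, as without it, and libraries of the same number had correlations of -0.0317 to 0.0279 in their deviations from the group means, so the numbers do not pair them. CDH1 with 5 to 9 counts in Ab, and ESRP1 in all groups, are limited by depth. Where a group was left with 1 library, that library was taken to vary like those of the other group, and these choices of libraries were made after the data were seen.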
